A study of Mus musculus with 12 samples.

Results

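The transcripts described here encode 10 regulators of cell division: the CDC25 phosphatases (Cdc25a, Cdc25b and Cdc25c), the cyclins Ccna2, Ccnb1, Ccnd3 and Ccne1, and the kinases Cdk1, Wee1 and Plk1. They were selected by symbol from the 55401 genes of the series, and the list was proposed with a result of these data in view, namely that Cdc25b was far lower in Nr5a2 Klf5 dKD than in Klf5 KD embryos. Every measure from the comparison of dKD with Klf5 KD is therefore given as a description with no test, as is Cdc25b wherever libraries of these groups enter. The libraries of Nr5a2 KD and control do not enter that comparison, although earlier results of all groups were known when the list was made.

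RNA-seq was performed on 12 libraries of mouse embryos at the 8-cell stage, 10 embryos to a library. The groups were 2 control libraries, 3 of Nr5a2 KD, 3 of Klf5 KD and 4 of Nr5a2 Klf5 dKD. Females of the strain B6129F1, 3 to 5 weeks old, were superovulated and mated with B6CBAF1 males, and zygotes were microinjected with siRNA against Nr5a2 (5 µM), Klf5 (10 µM) or with control siRNA (15 µM). The concentrations combined in the dKD were not given in the sources used here. All groups also received H2B-EGFP, which marks injected embryos, so the control was injected too. It differs from the single knockdowns by its siRNA and by the concentration of that siRNA. A library averages 10 embryos, and nothing in the labels says whether the pools came from separate injection days, so the p-values measure the spread between these pools. Because whole embryos were pooled, fewer cells carrying a transcript and less of it per cell cannot be told apart.

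CDC25 phosphatases remove the inhibitory phosphates that WEE1-family kinases place on CDK1 and CDK2. Cyclin B and cyclin A activate CDK1 for entry into mitosis, cyclin E activates CDK2 for entry into S phase, and D-type cyclins activate CDK4 and CDK6 in G1. PLK1 activates CDC25C, inactivates WEE1 and acts at the centrosome and kinetochore. In cleavage-stage embryos cells divide without growth, G1 is short, and the stock of maternal transcripts, cyclin B among them, is gradually replaced by transcripts of the embryo.

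Levels are given as CPM, the counts of a gene per 1000000 counts on genes after TMM scaling. The counts on genes ranged from 6676683 to 12560926 per library. Nr5a2, measured to check the labels, had 218 ± 10.5 CPM (mean ± SD) in the 2 control libraries, 32.0 ± 7.44 with Nr5a2 siRNA alone (n = 3), 192 ± 69.9 with Klf5 siRNA alone (n = 3) and 29.7 ± 3.69 with both (n = 4). Klf5 was at 456 ± 15.8, 140 ± 26.5, 111 ± 35.9 and 56.1 ± 19.5 CPM in the same order, so Klf5 mRNA was also low in the Nr5a2 KD libraries. All 6 markers of the 8-cell embryo (Pou5f1, Cdh1, Tead4, Dppa3, Tdgf1 and Tfap2c) were detected in each group. The 8 markers of cumulus and granulosa cells summed to 0.236 to 2.35 CPM over all libraries, with Ptx3 and Inhba at 0 in every library. The mitochondrially encoded share of the gene counts was 12.9 and 13.2% in control, but 6.18% in Nr5a2 KD replicate 3, 4.41% in Klf5 KD replicate 1, and 6.75 and 6.17% in dKD replicates 3 and 4, and these are called the 4 libraries of low mitochondrial share below. In each knockdown group they held the highest levels of Ccnb1, Cdk1, Ccnb2, Aurka and Bub3 and the lowest of Skp2, and in Nr5a2 KD and dKD also the highest of Ccna2, Wee1, Plk1 and Cdc20, and the part of the mitochondrial share in the group differences was not tested beyond the fits given beside the results. Of the 6 markers of the 8-cell embryo, Dppa3 made up nearly all of the summed level.

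Promoter windows show where the members with the clearest differences begin, and are given for Cdc25b and Cdk1, which were lower in Nr5a2 KD, and for Ccnd3, which was higher in dKD. Each is the 250 bases before the RefSeq start on GRCm38.p6, 5′ to 3′ on the strand of the gene. Capitals mark matches on either strand to CCNCNCCC, a motif of KLF factors, or to AAGGNCA, the core of the site bound by NR5A2, and overlapping matches run together. Cdc25b lies on the plus strand (chr2:131186698-131186947), Cdk1 on the minus strand (chr10:69352913-69353162) and Ccnd3 on the plus strand (chr17:47504801-47505050, the distal of 2 Ccnd3 starts in the table).
Cdc25b: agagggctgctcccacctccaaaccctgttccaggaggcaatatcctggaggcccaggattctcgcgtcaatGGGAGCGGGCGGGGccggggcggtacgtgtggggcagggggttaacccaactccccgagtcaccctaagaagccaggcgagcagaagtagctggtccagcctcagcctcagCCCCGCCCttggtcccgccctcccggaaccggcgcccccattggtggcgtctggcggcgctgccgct
Cdk1: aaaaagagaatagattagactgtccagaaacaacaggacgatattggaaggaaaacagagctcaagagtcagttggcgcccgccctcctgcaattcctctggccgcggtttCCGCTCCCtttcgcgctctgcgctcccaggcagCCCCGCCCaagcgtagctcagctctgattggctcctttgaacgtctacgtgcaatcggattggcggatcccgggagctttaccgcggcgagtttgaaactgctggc
Ccnd3: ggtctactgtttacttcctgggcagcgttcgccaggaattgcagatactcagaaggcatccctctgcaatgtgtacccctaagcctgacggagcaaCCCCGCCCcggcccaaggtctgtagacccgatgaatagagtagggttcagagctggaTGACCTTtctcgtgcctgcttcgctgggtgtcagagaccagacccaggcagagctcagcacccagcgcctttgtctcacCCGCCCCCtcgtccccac
The Cdc25b window held 3 matches to CCNCNCCC, the Cdk1 window 2 and this Ccnd3 window 2, where 45.9% of 32851 promoter windows of the same length held at least 1. AAGGNCA occurred in this Ccnd3 window alone among the 8 windows of the 7 members that the table holds (Cdc25a, Cdc25b, Ccnb1, Ccnd3, Ccne1, Cdk1 and Plk1), against 17.5% of all windows. The Cdk1 window held 2 copies of TTTGAA, the core of the CHR element of many mitotic genes (16% of all windows), and 3 of CCAAT (33.8%), while the Cdc25b window held 1 CCAAT and no TTTGAA. Matches of different motifs did not overlap in these windows. Such matches describe the letters only.

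Cdc25b mRNA was almost lost in Nr5a2 KD embryos. It was at 11.0 and 6.91 CPM in control and at 1.89, 0.138 and 0.126 CPM in Nr5a2 KD, where replicates 2 and 3 held 1 count each and replicate 1 held 16. Every Nr5a2 KD library lay below both controls, and replicate 1 stood apart from the other Nr5a2 KD libraries. On the log2 scale Cdc25b fell by 3.55 (standard error 0.807, adjusted p = 0.0186, edgeR's quasi-likelihood test with Benjamini-Hochberg adjustment over 13262 genes). Pooled over libraries, 124 control counts against 18 gave a ratio of 11.6 (95% exact interval 7.06 to 20.3), an interval that covers counting error only. Without control replicate 1 the log2 fold change was -3.22 and no longer called (adjusted p = 0.134), and without control replicate 2 it was -3.84 and still called (adjusted p = 0.0493). A fit that included each library's mitochondrial share gave -2.93 with an adjusted p of 0.215. Without Nr5a2 KD replicate 1 it was -5.87 (adjusted p = 0.00327).

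In the groups that took part in choosing the list, Cdc25b was at 12.9, 11.3 and 10.2 CPM in Klf5 KD and at 0.379, 0, 0.118 and 0.354 CPM in dKD. The Klf5 KD libraries overlapped the range of control, and the dKD libraries all lay below every control and Klf5 KD library. The dKD libraries held 7 counts together. Replicate 2 had 0 counts, for which 3 counts were taken as the limit, or 0.424 CPM at its depth. The ratio of Klf5 KD to dKD, from 309 against 7 counts, was 53.4 with a counting interval of 25.6 to 134, and that of control to dKD was 40.2 (18.9 to 102.1). The fitted log2 fold change of dKD against Klf5 KD was -5.62 (standard error 0.555) and that of dKD against control -5.22 (standard error 0.680). In dKD against Nr5a2 KD Cdc25b did not pass the filter on low counts, and the ratio of Nr5a2 KD to dKD was 3.46 (counting interval 1.38 to 9.80), with 16 of the 18 Nr5a2 KD counts in replicate 1.

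Cdc25b (ENSMUSG00000027330, chr2:131186949-131198497, plus strand, GRCm38) shares exon sequence with Spef1 on the opposite strand, and the counting did not use strand. Spef1 itself was at 0 to 2.24 CPM in the 12 libraries, highest in Klf5 KD (1.17, 2.24 and 1.03 CPM), and no 50-base stretch of the longest coding transcript of Cdc25b occurred in a transcript of another gene. Among 6566 genes with a mean of at least 10 CPM, those whose log2 CPM across the 12 libraries was most like that of Cdc25b were Cdc123 (Pearson r = 0.98), Rab20 (0.97) and Crxos (0.97). The 12 points fall into libraries with and without Nr5a2 siRNA, so these values describe a shared split.

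**Figure D1:**
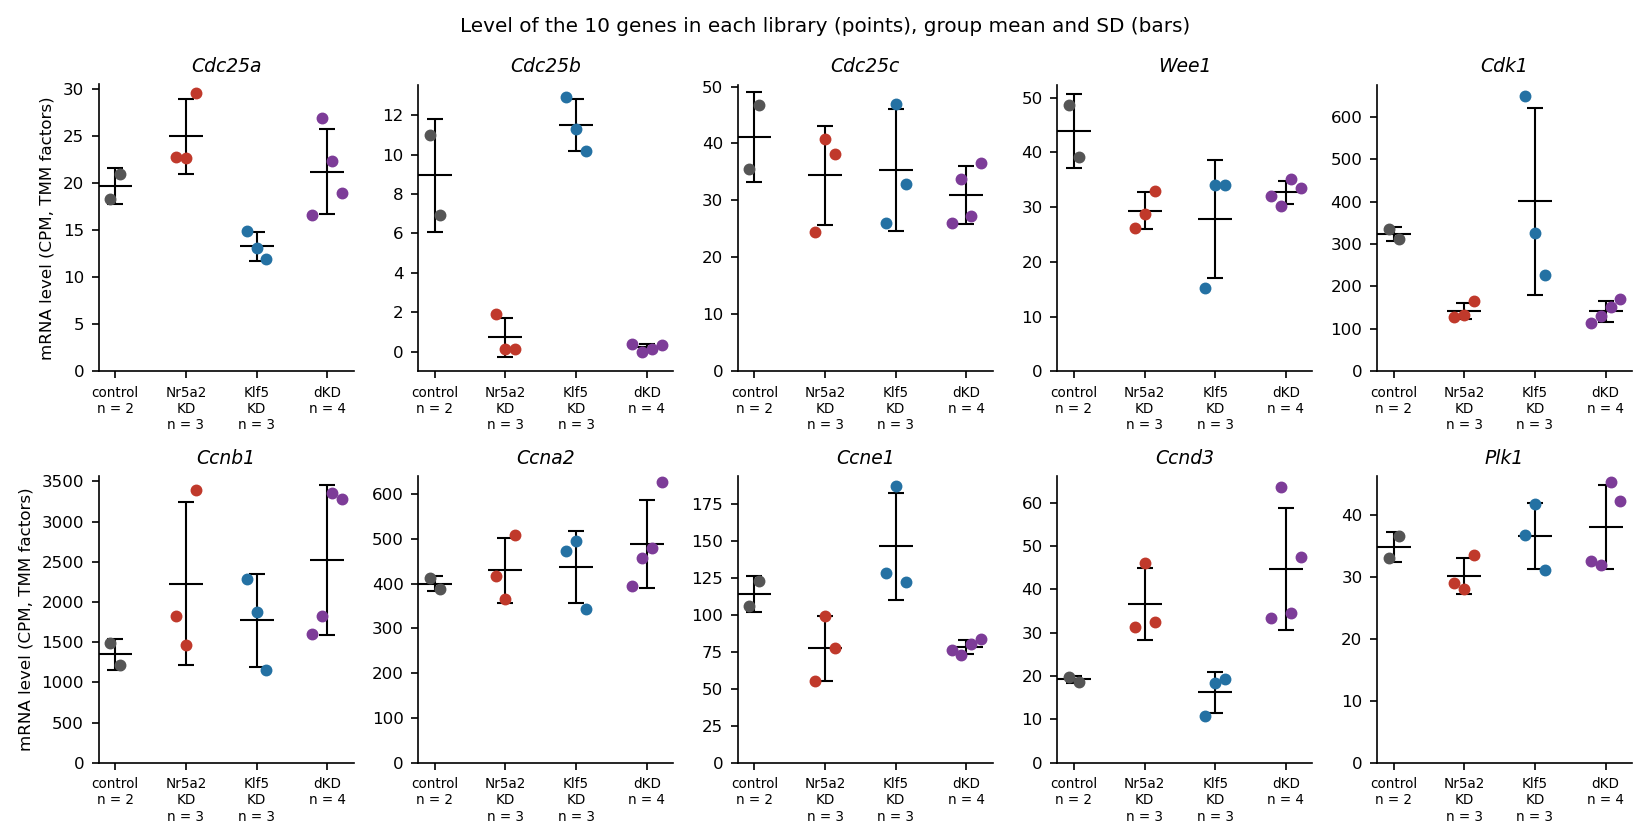
Level of each of the 10 transcripts by group, in CPM on linear axes, with 1 point per library and bars for the group mean and SD. Cdc25b lay between 6.91 and 12.9 CPM in the control and Klf5 KD libraries and at or below 1.89 CPM in the Nr5a2 KD and dKD libraries, Cdk1 was lower and Ccnd3 higher in all libraries with Nr5a2 siRNA than in control, and Ccnb1 spread widely within the knockdown groups.

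The levels of the other CDC25 genes were then examined, to see whether they were higher where Cdc25b was low. Cdc25a, which acts at both S-phase and mitotic entry, was at 18.3 and 21.0 CPM in control, 22.8, 22.7 and 29.6 CPM in Nr5a2 KD, and 14.9, 13.1 and 11.9 CPM in Klf5 KD. In dKD it was at 16.6, 26.9, 22.4 and 18.9 CPM. The Nr5a2 KD libraries lay above and the Klf5 KD libraries below both controls, and dKD overlapped control. None of these differences passed the test: Cdc25a gave a log2 fold change of 0.38 for Nr5a2 KD (standard error 0.275, adjusted p = 0.445, edgeR), 0.15 in dKD (standard error 0.275, adjusted p = 0.794) and -0.55 in Klf5 KD (standard error 0.317, adjusted p = 0.635). With ERCC spike-in counts as library sizes Cdc25a was at 1.22 in Nr5a2 KD (adjusted p = 0.127), beside a shift of the median of all genes to 0.82. In dKD it reached at most 0.93 over the alternatives and was called in none. Against Klf5 KD, the dKD libraries were all higher in Cdc25a, with a log2 fold change of 0.68 (standard error 0.271, not tested).

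Cdc25c, the CDC25 gene with the most transcript in control per length of exon, was at 35.6 and 46.8 CPM in control. It was at 24.5, 40.8 and 38.1 CPM in Nr5a2 KD, 26.0, 46.9 and 32.9 in Klf5 KD, and 26.0, 33.8, 27.2 and 36.5 in dKD, and all groups overlapped control. Its log2 fold change in Nr5a2 KD was -0.23 (standard error 0.282, adjusted p = 0.68) and -0.38 in dKD (standard error 0.243, adjusted p = 0.369). With ERCC spike-in counts as library sizes these values became 0.58 and 0.44, beside a shift of the median of all genes to 0.82 and 0.84. Cdc25c also shares exon sequence with Gm3550 on the opposite strand.

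Per kilobase of exon, Cdc25b made up 23.6 and 13.2% of the summed level of the 3 genes in control and 32.6, 21.4 and 25.1% in Klf5 KD. It made up 6.09, 0.331 and 0.294% in Nr5a2 KD and 0 to 1.37% in dKD. The summed level was 12.5 and 14.0 CPM per kb in control, 8.32, 11.2 and 11.5 in Nr5a2 KD, 10.6, 14.2 and 10.9 in Klf5 KD, and 7.45, 10.2, 8.35 and 9.88 in dKD. Thus every library with Nr5a2 siRNA had a lower sum than both controls, but so did Klf5 KD replicates 1 and 3 (10.6 and 10.9), which kept Cdc25b. The sums contain Cdc25b and were not tested. The length was that of all annotated exons of a gene together, 8023 bases for Cdc25a, 3728 for Cdc25b and 4919 for Cdc25c. The longest coding transcripts held 3583, 3040 and 1896 stretches of 50 bases, so with transcript lengths the share of Cdc25b would be smaller.

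**Figure D2:**
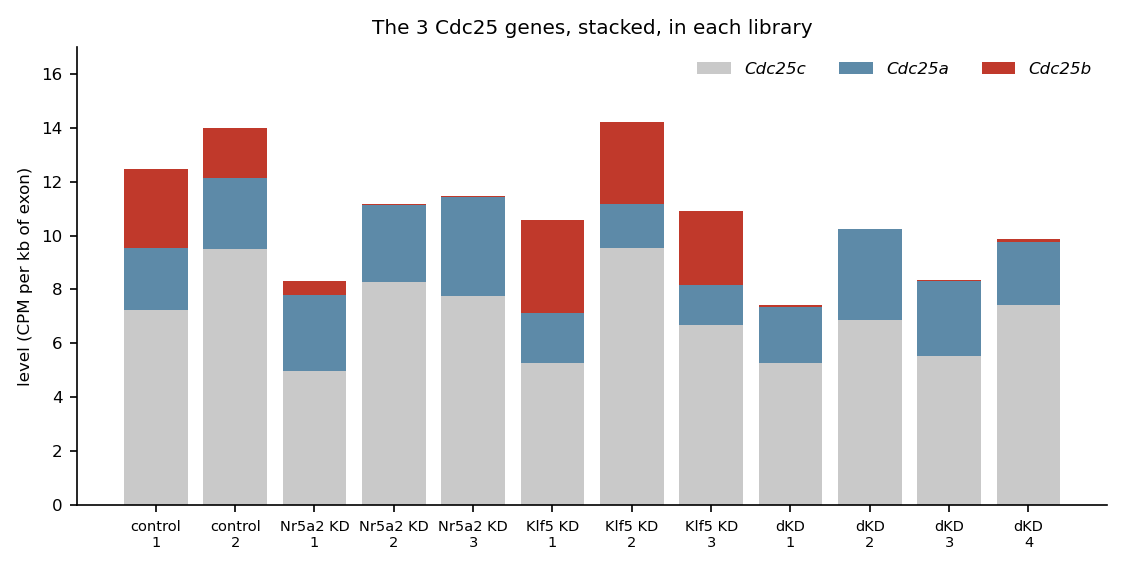
Stacked levels of Cdc25c, Cdc25a and Cdc25b in each library, in CPM per kb of exon. The Cdc25b segment was 1.85 to 3.45 CPM per kb in control and Klf5 KD and at most 0.506 in the libraries with Nr5a2 siRNA. The bars reached 7.45 to 11.5 CPM per kb with Nr5a2 siRNA, 10.6 to 14.2 in Klf5 KD, and 12.5 and 14.0 in control.

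Cdk1, the kinase on which CDC25 phosphatases and mitotic cyclins act, fell in both groups with Nr5a2 siRNA. It was at 336 and 312 CPM in control, at 129, 133 and 165 CPM in Nr5a2 KD and at 114, 130, 152 and 170 CPM in dKD. Neither group overlapped control, while they overlapped each other, and the means were 44.0 and 43.7% of the control mean. Within each of these groups the libraries of low mitochondrial share were the highest (Nr5a2 KD replicate 3 at 165 CPM, dKD replicates 3 and 4 at 152 and 170 CPM) and so the nearest to control, and with libraries of a share above 7% only the log2 fold changes were -1.28 and -1.38 (adjusted p = 0.000821 and 0.00318). On the log2 scale Cdk1 fell by 1.16 in Nr5a2 KD (standard error 0.220, adjusted p = 0.00802) and by 1.15 in dKD (standard error 0.212, adjusted p = 0.00868), and the 2 comparisons share their control libraries. Without control replicate 1 or 2 the adjusted p was 0.116 or 0.0873 in Nr5a2 KD and 0.111 or 0.0944 in dKD, with log2 fold changes of -1.28 to -1.07 and -1.25 to -1.06 over all libraries left out in turn. A control of 1 library was assumed in these fits to vary like the other libraries. With ERCC counts as library sizes the values were -0.33 and -0.32, while the median of all genes moved to 0.82 and 0.84, so that Cdk1 stayed below the bulk of transcripts but was no longer called.

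In Klf5 KD, Cdk1 was at 650, 326 and 228 CPM, a spread that included control. Replicate 1, the highest, was the library with the lowest mitochondrial share, and without it the log2 fold change turned from 0.33 to -0.24, neither past the test (adjusted p = 0.844 and 0.849). Cdk1 was lower in every dKD library than in every Klf5 KD library, with a log2 fold change of -1.49 (standard error 0.310, not tested). No 50-base stretch of Cdk1 was shared with another gene, and no annotated exon overlapped it.

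Of the kinases that place the inhibitory phosphates, Wee1 was at 48.6 and 39.1 CPM in control and at 26.2, 28.8 and 32.9 CPM in Nr5a2 KD. It was at 15.3, 34.0 and 34.1 CPM in Klf5 KD and at 32.0, 30.2, 35.2 and 33.5 CPM in dKD. All 10 knockdown libraries lay below both controls, but no group passed the test, with log2 fold changes of -0.55 (standard error 0.244, adjusted p = 0.189), -0.67 (standard error 0.349, adjusted p = 0.617) and -0.38 (standard error 0.220, adjusted p = 0.314). Wee1 and Cdk1 moved apart in Klf5 KD replicate 1, which had the lowest Wee1 and the highest Cdk1 of the 12 libraries. Pkmyt1, the membrane-bound kinase of the same family, averaged 5.01 ± 1.08 CPM in the control libraries (SD, n = 2) and 2.87 ± 0.83 with both siRNAs (SD, n = 4), and the log2 fold change of -0.77 did not pass the test (adjusted p = 0.334). Wee2, the oocyte member, was at most 2.89 CPM in any library.

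Among the cyclins, Ccnd3 was the member called higher in dKD against control. It was at 19.8 and 18.7 CPM in control, 31.2, 46.1 and 32.5 CPM in Nr5a2 KD, 10.8, 18.5 and 19.4 CPM in Klf5 KD, and 33.3, 63.5, 34.6 and 47.4 CPM in dKD. All 7 libraries with Nr5a2 siRNA lay above all 5 without it. The log2 fold change in dKD was 1.25 (standard error 0.303, adjusted p = 0.0276) and passed the test, and that in Nr5a2 KD was 0.95 (standard error 0.274, adjusted p = 0.0506) and did not. When control replicate 1, control replicate 2 or dKD replicate 4 was left out, the log2 fold change in dKD stayed at 1.28, 1.22 and 1.22, but the adjusted p was 0.192, 0.217 and 0.0624, and the call did not hold. In Nr5a2 KD Ccnd3 passed both limits in 4 of 11 alternative settings. These were total counts (1.06, adjusted p = 0.0452), ERCC counts (1.69, 0.0462), the mitochondrial share as a covariate (1.15, 0.0422), and libraries of a share above 7% only, which is the fit without replicate 3 (1.03, 0.0298). Among the fits where it did not pass were 1 fit of all 12 libraries (0.93, adjusted p = 0.122) and that without Nr5a2 KD replicate 2 (0.76, 0.115). Ccnd3 shares exon sequence with Bysl on the opposite strand.

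Ccne1 was at 106 and 123 CPM in control, 55.2, 99.0 and 77.2 CPM in Nr5a2 KD and 76.2, 72.6, 80.2 and 83.8 CPM in dKD. Klf5 KD libraries held 128, 187 and 122 CPM. The libraries with Nr5a2 siRNA were all lower than both controls, though the log2 fold changes of -0.54 (standard error 0.266, adjusted p = 0.241) and -0.51 (standard error 0.197, adjusted p = 0.135) did not pass the test. In dKD against Klf5 KD it was -0.89 (standard error 0.223, not tested), with no overlap. The other E-type cyclin, Ccne2, overlapped control in every group, with log2 fold changes of -0.27 in Nr5a2 KD and 0.25 in dKD (adjusted p = 0.629 and 0.655), and Cdk2, the partner of both, averaged 52.7 ± 2.11 CPM in the control libraries (SD, n = 2) and 75.5 ± 16.2 with both siRNAs (SD, n = 4), a log2 fold change of 0.55 that did not pass the test (adjusted p = 0.174).

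Ccnb1 was the most abundant member in every group, at 320 CPM per kb of exon in control. In CPM it was at 1490 and 1210 in control, 1830, 1460 and 3390 in Nr5a2 KD, 2290, 1870 and 1150 in Klf5 KD, and 1600, 1820, 3360 and 3280 in dKD. The 4 highest levels were those of the 4 libraries with the lowest mitochondrial shares, at or below 6.75%, while the other 8 had shares of at least 8.28% and at most 1871 CPM. Ccnb1 gave a log2 fold change of 0.76 for Nr5a2 KD (standard error 0.333, adjusted p = 0.186) and 0.94 for dKD (standard error 0.320, adjusted p = 0.0938), and neither passed the test. Without dKD replicate 1 the value in dKD was 1.11 and passed (adjusted p = 0.0319), as did that with ERCC counts as library sizes (1.81, adjusted p = 0.0274). Using libraries with a share above 7% only, it was 0.31 and 0.37 (adjusted p = 0.279 and 0.132). With the share as a covariate it was -0.018 and 0.31 (adjusted p = 0.973 and 0.204).

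The same libraries were also the highest of their groups for Ccnb2, another B-type cyclin, at 108 CPM in Nr5a2 KD replicate 3, 123 in Klf5 KD replicate 1, and 118 and 93.9 in dKD replicates 3 and 4, where control held 64.3 and 55.0. Aurka, the kinase that activates PLK1, showed the same order, at 182, 191, 177 and 184 CPM in these libraries against 134 and 113 in control. Neither Ccnb2 nor Aurka passed the test in Nr5a2 KD (log2 fold change 0.45 and -0.01, adjusted p = 0.401 and 0.989) or in dKD (0.57 and 0.16, adjusted p = 0.256 and 0.827). Ccnb1 carries a further limit: 42.1% of the 50-base stretches of its longest coding transcript occurred in transcripts of 6 other genes, led by the pseudogene Ccnb1-ps (34.1%). Reads mapping to several places were not counted, so reads from the shared stretches may be missing from its level, and Ccnb1-ps itself was at no more than 153 counts in a library where Ccnb1 ranged from 7825 to 28428.

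**Figure D3:**
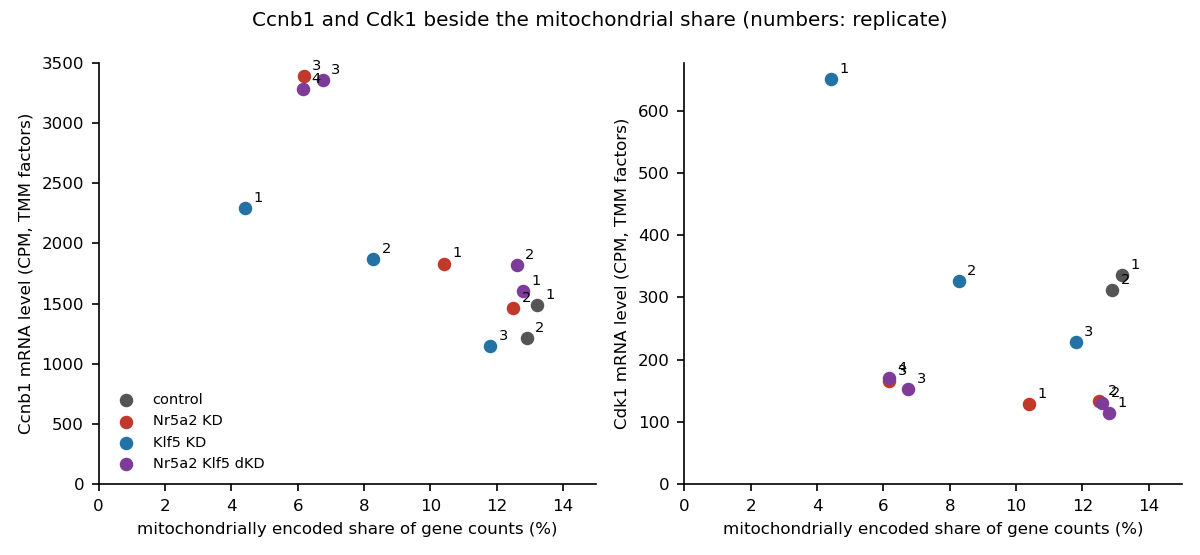
Ccnb1 (left) and Cdk1 (right) in CPM against the mitochondrially encoded share of gene counts in percent, 1 point per library, coloured by group and numbered by replicate. Ccnb1 was at 2292 CPM or more in the 4 libraries at or below 6.75%, and Cdk1 in the 7 libraries with Nr5a2 siRNA was at 152 to 170 CPM in the 3 of low share and at 114 to 133 CPM in the other 4, all below the 312 and 336 CPM of control.

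As Cdk1 was lower and Ccnb1 was not, the ratio of Ccnb1 to Cdk1, per kilobase, differed between groups. Without Nr5a2 siRNA it averaged 4.87 ± 0.438 (control, SD, n = 2) and 5.58 ± 1.32 (Klf5 KD, SD, n = 3), and with it 17.8 ± 5.75 (Nr5a2 KD, SD, n = 3) and 20.3 ± 4.66 (dKD, SD, n = 4). The lowest value with Nr5a2 siRNA was 12.8 and the highest without it 6.72, and the libraries with a high mitochondrial share also lay on their own side. The ratio was formed after the levels were seen and was not tested.

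Ccna2, which serves both S phase and mitosis, was at 412 and 388 CPM in control and 344 to 626 CPM in the knockdown libraries. Ccna2 differed from control by 0.13 on the log2 scale in Nr5a2 KD (standard error 0.228), 0.14 in Klf5 KD (standard error 0.259) and 0.33 in dKD (standard error 0.222), with adjusted p of 0.782, 0.919 and 0.396. With ERCC counts as library sizes the value in dKD was 1.16 and was called (adjusted p = 0.0478), beside the shift of the median of all genes to 0.84. Plk1 was at 33.1 and 36.6 CPM in control and 28.0 to 45.4 CPM in the knockdown libraries, and the log2 fold changes of -0.17, 0.08 and 0.17 (standard errors 0.242, 0.284 and 0.246) did not pass the test either (adjusted p = 0.725, 0.959 and 0.726). These transcripts overlapped control in all groups. Each shares exon sequence with a gene on the opposite strand, Ccna2 with Exosc9 and Plk1 with Gm44985, and 6.84% of the 50-base stretches of Plk1 recur in the pseudogene Plk-ps1.

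The order of the members per kilobase in control ran from Ccnb1 (320 CPM per kb) through Ccna2 (98), Cdk1 (65.6), Ccne1 (43.0), Plk1 (15.8), Wee1 (12.8) and Cdc25c (8.38) to Cdc25a (2.45), Cdc25b (2.40) and Ccnd3 (2.19). The last 3 overlapped their neighbours in the order and the others did not. The length was that of all annotated exons of a gene together, which can exceed that of a transcript, so the order depends on it. For Ccnd3 it was 8775 bases, where the longest coding transcript held 2064 stretches of 50 bases, and for Plk1 2199 bases, with 2150 stretches. In Nr5a2 KD and dKD, Ccne1 (29.0 and 29.4 CPM per kb) and Cdk1 (28.9 and 28.7) overlapped, Ccnd3 (4.17 and 5.09) stood ahead of Cdc25a (3.12 and 2.64, overlapping it in Nr5a2 KD), and Cdc25b was last at 0.192 and 0.0571.

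**Figure D4:**
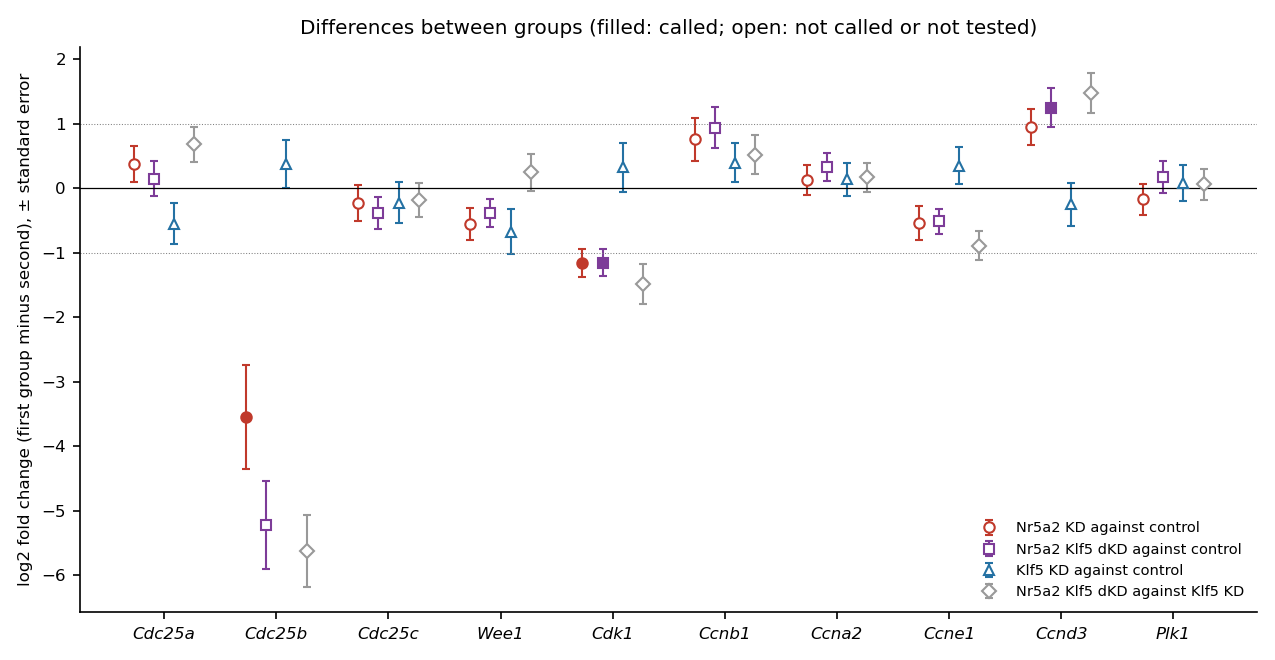
Log2 fold changes of the 10 members with standard errors in 4 comparisons, with dotted lines at a change of 2-fold, filled symbols for calls and open symbols for values that were not called or not tested. In Nr5a2 KD against control Cdc25b (-3.55) and Cdk1 (-1.16) are filled, in dKD against control Cdk1 (-1.15) and Ccnd3 (1.25), and in Klf5 KD against control no symbol.

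Read as a set, 2 of the 10 members were called lower in Nr5a2 KD against control (Cdc25b and Cdk1) and 0 higher. A call needs an adjusted p under 0.05 with a change of 2-fold or more. Of the 13262 genes tested, 4.42% were called lower and 3.45% higher. The list was made with the low Cdc25b of dKD in view, so Cdc25b adds no separate support to this count, and Cdk1 was the other member called. An unadjusted p under 0.05 was found for 5 members, Cdc25b included, and for 24.1% of all genes. DESeq2 called the same 2. In dKD against control, 1 of the 9 members other than Cdc25b was called lower (Cdk1) and 1 higher (Ccnd3), beside 3.85% and 3.38% of 13724 genes, and 4 of the 9 had an unadjusted p under 0.05, as did 25.0% of all genes. DESeq2 called the same 2 there. The median log2 fold change was -0.203 over the 10 members in Nr5a2 KD, Cdc25b included, and 0.148 over the 9 in dKD. The medians of all genes were 0.044 and 0.055.

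Klf5 siRNA alone, or on top of Nr5a2 siRNA, gave no called member. In Klf5 KD against control edgeR and DESeq2 both called 0 of the 9 members other than Cdc25b, 0 had an unadjusted p under 0.05 and the lowest adjusted p was 0.617 (Wee1), where edgeR called 0% of 12838 genes and 8.47% had an unadjusted p under 0.05. In dKD against Nr5a2 KD the same counts were 0, 0 and 0, and the log2 fold changes ran from -0.24 (Cdc25a) to 0.34 (Plk1). Of 13017 genes edgeR called 0% there, with 3.43% at an unadjusted p under 0.05, and DESeq2 called 4 genes lower. That edgeR fit did not pair libraries by replicate number. A fit with the replicate block called 0 genes, with 855 at an unadjusted p under 0.05, against 447 without it, and a lowest adjusted p of 0.0707. Neither tool called an interaction between the knockdowns for any of the 9 members in a fit of all 12 libraries. In edgeR 0 of these members had an unadjusted p under 0.05. Among the 14830 genes of that fit edgeR called 0%, with 4.82% at an unadjusted p under 0.05, while DESeq2 called 3 genes higher. With these group sizes, exact two-sided permutation tests of single transcripts cannot go below 0.2 for 2 against 3 libraries, 0.133 for 2 against 4 and 0.0571 for 3 against 4, so the calls rest on the spread that edgeR shares across genes.

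To place the members among the rest of the division machinery, 105 other cell cycle genes were examined in 10 lists. In Nr5a2 KD against control 97 were tested, of which 1 was called lower and 3 higher, and 8 passed the adjusted p with no fold minimum, where 9.03% of all genes did. In dKD against control 96 were tested, 1 was called lower and 3 higher, and 8 passed the adjusted p, beside 8.34% of all genes. The median log2 fold change was -0.035 and 0.028. The share that passed the adjusted p was thus close to that of all genes in both comparisons, while the share called, with the minimum of 2-fold, was lower in the lists (4.12 and 4.17%) than over all genes (7.86 and 7.24%), a difference that was not tested.

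The called gene that was lower in both was Skp2, the substrate receptor of an SCF ubiquitin ligase that degrades CDK inhibitors. Skp2 averaged 88.0 ± 2.03 CPM in the control libraries (SD, n = 2), 40.1 ± 10.8 with Nr5a2 siRNA alone (SD, n = 3) and 36.0 ± 11.5 with both siRNAs (SD, n = 4), with log2 fold changes of -1.11 and -1.26 (adjusted p = 0.0191 and 0.0175). The libraries of low mitochondrial share were the lowest of their groups, at 28.6 CPM in Nr5a2 KD replicate 3 (others 41.6 and 50), 40.0 in Klf5 KD replicate 1 (others 71.5 and 86.9), and 22.7 and 30.2 in dKD replicates 3 and 4 (others 45.0 and 46.2). Without them Skp2 was at -0.92 in both comparisons (adjusted p = 0.0133 and 0.0208), under 2-fold and so not called. With the share as a covariate it was at -0.74 and -0.89 (adjusted p = 0.0932 and 0.0283). Skp2 was also not called in either comparison with ERCC library sizes or with the replicate block, nor in Nr5a2 KD in 1 fit of all 12 libraries. The other 6 SCF genes did not pass the test in either. Cks2, a small subunit of CDK complexes, was lower without reaching 2-fold (-0.82 and -0.88, adjusted p = 0.0308 and 0.0112), as was Anapc10, a subunit of the anaphase-promoting complex (-0.88 and -0.86, adjusted p = 0.0465 and 0.0198).

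Plk2, a polo-like kinase of centriole duplication and stress responses, and Atr, the kinase that responds to stalled replication, rose in both comparisons. Plk2 was at 3.33 and 1.48 CPM in control, 13.2, 12.1 and 22.7 in Nr5a2 KD and 16.3, 6.24, 8.74 and 9.92 in dKD (log2 fold change 2.78 and 2.14, adjusted p = 0.00534 and 0.0258). Atr was at 11.7 and 9.19 CPM in control, 18.6, 34.3 and 29.5 in Nr5a2 KD and 29.3, 28.6, 21.1 and 19.4 in dKD (1.42 and 1.27, adjusted p = 0.0228 and 0.0238). Both lay above control in every library with Nr5a2 siRNA. A replicate block left Plk2 called in both comparisons and Atr in dKD only. Without the libraries of low mitochondrial share Atr was at 1.36 and 1.5 (adjusted p = 0.0285 and 0.0175) and Plk2 at 2.43 and 2.27, the latter no longer called (adjusted p = 0.00749 and 0.0565). Chek1, the kinase downstream of ATR that inhibits CDC25 phosphatases, did not pass the test (-0.33 and -0.14, adjusted p = 0.495 and 0.782).

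Of the 19 spindle checkpoint and anaphase-promoting complex genes, Bub3 was called in Nr5a2 KD (log2 fold change 1.25, adjusted p = 0.0463; 1.15 and 0.0514 in dKD, where DESeq2 called it) and Cdc20, the activator of the complex at anaphase, in dKD (1.15, adjusted p = 0.0204; 0.91 and 0.0768 in Nr5a2 KD). Bub3 was highest in libraries with a low mitochondrial share, at 184 CPM in Nr5a2 KD replicate 3, 146 in Klf5 KD replicate 1, and 164 and 134 in dKD replicates 3 and 4, against 66.5 and 43.7 in control. Cdc20 was at 261 CPM in Nr5a2 KD replicate 3 and 267 and 257 in dKD replicates 3 and 4, against 141 to 183 in the other libraries of these groups and 114 and 90.8 in control. With libraries of a share above 7% only, Bub3 was at 0.89 in Nr5a2 KD (adjusted p = 0.0535) and Cdc20 at 0.83 in dKD (adjusted p = 0.0233), and neither was called. In those libraries 3 of 94 list genes were called in Nr5a2 KD (Atr, Plk2 and Lin52, or 3.19% where 7.83% of all genes were) and 2 of 95 in dKD (Atr and Btrc, or 2.11% against 5.5%), Lin52 and Btrc being named after their values were seen. Mad2l1, the checkpoint protein that binds CDC20, was lower by less than 2-fold in dKD (-0.72, adjusted p = 0.0442).

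The other lists held no gene called by edgeR. None of the other cyclins, CDK inhibitors, RB and E2F genes or G2/M transcription factors passed its adjusted p in Nr5a2 KD or dKD against control, with medians from -0.14 to 0.452 and from 0.099 to 0.384, while DESeq2 called the cyclin Ccnd1 in Nr5a2 KD and Rb1 in dKD, both named after their values were seen. Foxm1, the forkhead factor of mitotic genes, was at 1.16 to 5.48 CPM in the 12 libraries. Bora, the cofactor of Aurora A in the activation of PLK1, and the phosphatase Cdc14b were lower by less than 2-fold in Nr5a2 KD (-0.93 and -0.84, adjusted p = 0.0371 and 0.0315), and the checkpoint kinase Chek2 in dKD (-0.69, adjusted p = 0.0462). In Klf5 KD against control edgeR called 0 of 94 genes, with 5 at an unadjusted p under 0.05 (8.47% of all genes) and 1 called by DESeq2, which called 50 of the 12838 genes. In dKD against Nr5a2 KD it called 0 of 94, with 3 at an unadjusted p under 0.05 and 0 called by DESeq2.

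**Figure D5:**
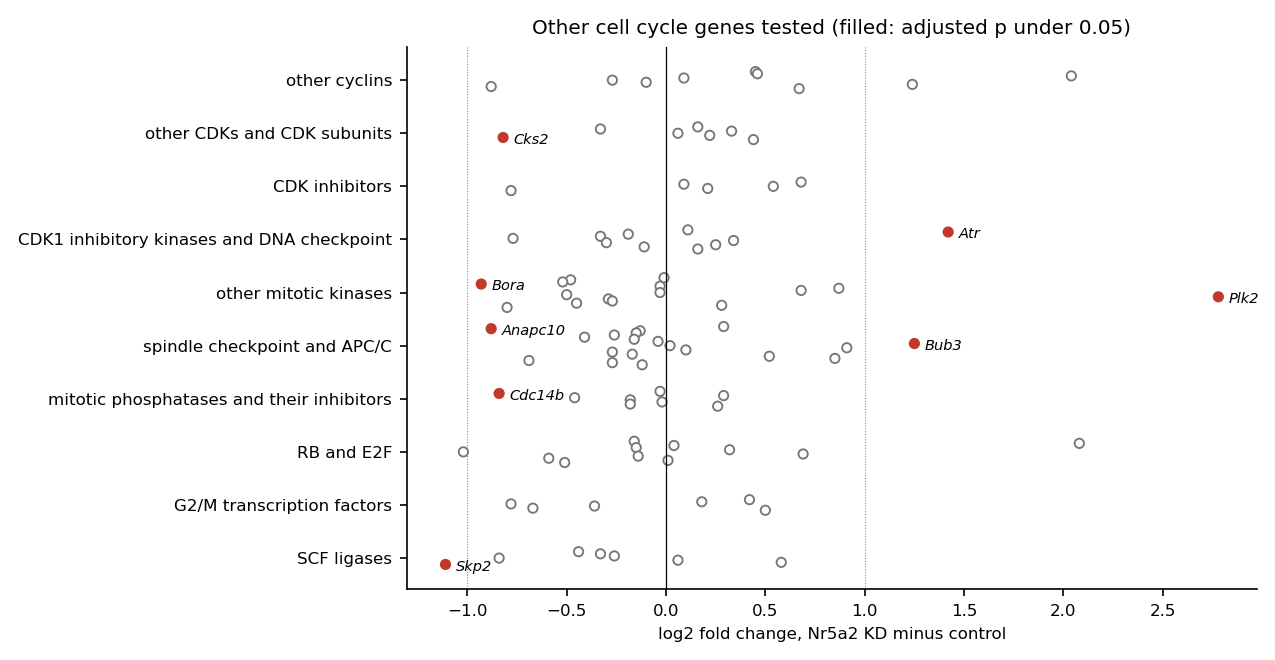
Log2 fold change in Nr5a2 KD against control of the 97 other cell cycle genes that were tested, 1 point per gene in rows by list, with filled points for an adjusted p under 0.05 and dotted lines at 2-fold. The 8 filled points are Skp2, Bora, Anapc10, Cdc14b and Cks2 below 0 and Bub3, Atr and Plk2 above 0.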

How the data were processed

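RNA-seq of 12 libraries of pooled 8-cell embryos was analysed from the deposited counts. Per the labels and methods, the authors trimmed read pairs with TrimGalore 0.6.2, used STAR for mapping (GRCm38, to which ERCC and H2B-EGFP sequences had been added), and counted them over exons with featureCounts 2.0.1. The file headers name a filtered alignment, and the filter is not given in the sources used here. The values deposited by the authors are estimated counts and were not normalized: a pair overlapping several genes is split between them, multi-mapping reads are left out and strand is not used. No molecular identifiers were used, so amplified copies of 1 molecule cannot be told from separate molecules. The intervals treat each count as separate, cover counting error only and may be too narrow even for that.

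Here the counts were rounded and compared in pairs of groups with edgeR 4.0.16 (R 4.3.3; TMM factors, filterByExpr with min.count 10 and min.total.count 15, glmQLFit and glmQLFTest). Adjusted p-values (Benjamini-Hochberg) cover all genes tested, and calls required an adjusted p under 0.05 with a change of 2-fold or more. Alternatives included DESeq2 1.42.0, other library sizes and filters, a replicate block and each library left out. Deviations from the group mean were correlated between Nr5a2 KD and dKD libraries of equal replicate number (r = 0.13, 0.221 and 0.254), and as each was over 0.1 the numbers were taken to pair the groups, although Nr5a2 KD replicate 3 correlated as closely with dKD replicate 4 (r = 0.264), both of low mitochondrial share. In no other pair of groups were all correlations over 0.1. Names came from GENCODE M21 (55141 of 55401 IDs) and promoters from RefSeq on GRCm38.p6, with windows for 7 of the 10 members. Tests were tested on simulated data before use.

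The members and the gene lists were chosen with earlier results of these data known. Named genes are the 10 members, other cell cycle genes called in Nr5a2 KD or dKD against control, 8 partners of the members, the 3 genes most like Cdc25b, and the siRNA targets. Genes that passed the adjusted p without 2-fold were named after their values were seen. The oocyte marker list summed to 52.7 to 116 CPM and the 2-cell list to 8.23 to 21.1 CPM over the libraries. The 8-cell list summed to 14700 to 17400 CPM in control and 17000 to 29700 in the knockdowns, nearly all of it from Dppa3 (at most 17200 and 29500 CPM).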

Additional observations from a re-analysis of the deposited data

How the results depend on the processing

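The cell cycle genes called beside the members numbered 4 in Nr5a2 KD against control (with 7.86% of all genes called), 2 in 1 fit of all 12 libraries (5.89%), 8 with no fold minimum (9.03%) and 7 at an unadjusted p with 2-fold (15.2%). In dKD against control they numbered 4 (7.24% of all genes), 17 with ERCC library sizes (22%), 7 without a filter (5.75%), 2 in libraries above a 7% mitochondrial share (5.5%, an alternative chosen after seeing the data), 8 with no fold minimum (8.34%) and 7 at an unadjusted p with 2-fold (15.5%). In Klf5 KD against control they numbered 0, but 1 with DESeq2 (0.389%) and 1 without a filter (0.432%), and 2 at an unadjusted p with 2-fold (5.01%), and in dKD against Nr5a2 KD 0, with 1 at an unadjusted p (Wee2, beside 1.7%). The members called in Nr5a2 KD numbered 2, and 1 at a mean of at least 50 counts, where Cdc25b was not tested. With the replicate block the cell cycle genes called against control were 2 in Nr5a2 KD (Lin52 and Plk2, with 6.56% of all genes), 4 in dKD (Atr, Btrc, Plk2 and Rb1, with 7.55%) and 1 in Klf5 KD (Ccnh, with 1.97%). Atr, Bub3 and Skp2 thus lost their calls in Nr5a2 KD, and Cdc20 and Skp2 in dKD. The replicate block changed no call of a member, and its value for Cdc25b was -3.41.

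Leaving out each library in turn gave 0 to 3 called members and 0 to 6 cell cycle genes in both Nr5a2 KD and dKD against control, and 0 in the other comparisons and for the interaction. For Cdc25b in Nr5a2 KD it gave -5.87 to -3.05, and the mitochondrial share as a covariate gave -2.93. Without control replicate 1 or 2 the called members were 0 or 1 in Nr5a2 KD and 0 in dKD.

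Of 814 other recomputed member values, 751 kept their direction and side of the threshold or stayed within the spread, 9 lost and 8 gained a call, 7 untested values moved by more than the spread, and 39 changed sign, none of them a called value. With ERCC library sizes, which moved the median of all genes by 0.82, 0.84 and 0.66, values turned in Nr5a2 KD against control for Cdc25c (0.58), Ccne1 (0.23), Wee1 (0.25) and Plk1 (0.64), in dKD for Cdc25c (0.44), Ccne1 (0.31) and Wee1 (0.41), and in Klf5 KD for Cdc25a (0.14), Cdc25c (0.46) and Ccnd3 (0.37). With the mitochondrial share as a covariate they turned in Nr5a2 KD for Ccna2 (-0.16) and Ccnb1 (-0.018), in dKD for Plk1 (-0.11), and in Klf5 KD for Ccna2 (-0.21), Ccnb1 (-0.35), Ccnd3 (0.24), Cdk1 (-0.86), Wee1 (0.016) and Plk1 (-0.12). With the replicate block Ccna2 turned in Nr5a2 KD (-0.028) and Plk1 in dKD (-0.082). Without Nr5a2 KD replicate 3, and so also above a 7% share, Ccna2 was at -0.010 (up to 0.24 with others left out), and above that share Plk1 in dKD at -0.078. With 1 library left out, values in Klf5 KD ran from -0.24 (without replicate 1) to 0.62 for Cdk1, from -0.014 to 0.19 for Plk1 and from -0.48 to 0.002 for Cdc25c. In dKD against Nr5a2 KD, where main values were near 0, leaving out 1 library gave -0.051 to 0.64 for Ccnb1, -0.17 to 0.24 for Ccne1 and -0.10 to 0.13 for Cdk1, with Ccne1 at -0.050 above a 7% share and Cdk1 at 0.034 with total counts and 0.006 with ERCC sizes or without a filter. The causes were not tested.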

Other observations

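Some cell cycle genes outside the naming rule, chosen after their values were seen, differed by size or by tool. Ccnd1, the D-type cyclin next to Ccnd3 in function, had a log2 fold change of 2.04 in Nr5a2 KD against control (standard error 0.6, adjusted p = 0.0547, edgeR) and 1.3 in dKD (adjusted p = 0.181), and DESeq2 called it in Nr5a2 KD. Rb1, the protein that D-type cyclin kinases phosphorylate, had values of 0.69 and 1.11 (adjusted p = 0.231 and 0.0724), and DESeq2 called it in dKD. Ccnh, the cyclin of the CDK-activating kinase, had a log2 fold change of 1.36 in Klf5 KD against control (standard error 0.307, adjusted p = 0.228) and was the cell cycle gene that DESeq2 called there.

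Klf5 KD replicate 1, the deepest library with 12560926 counts on genes, held the highest Cdk1 (650 CPM) and the lowest Wee1 (15.3 CPM) and Ccnd3 (10.8 CPM) of the 12 libraries, and Nr5a2 at 117 CPM where the other Klf5 KD libraries held 256 and 203.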
